A study of Mus musculus with 8 samples.

Results

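V(D)J recombination is the cut-and-paste reaction by which developing lymphocytes assemble antigen receptor genes. The RAG1 and RAG2 proteins, made in developing lymphocytes, cut DNA at recombination signal sequences, and terminal transferase, encoded by Dntt, adds untemplated nucleotides to the cut ends. The ends are rejoined by non-homologous end joining, a repair route that most cells use: the Ku proteins (Xrcc5 and Xrcc6) hold the ends, the kinase DNA-PKcs (Prkdc) with the nuclease Artemis (Dclre1c) opens the hairpins, and DNA ligase IV (Lig4) seals the break with XRCC4 (Xrcc4) and XLF (Nhej1). These 10 genes, 3 lymphoid enzymes and 7 end-joining genes, were chosen by symbol. A probe set with 1 gene symbol was found for 9 of the 10 among 19937 genes. Dclre1c had none in the annotation used, so its transcript was not analysed here.

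RNA came from mouse B-lymphoid cells, strain SW129/C57BL/6J, in 4 samples labelled c-jun knock out and 4 labelled wild type, and each was read on 1 Affymetrix MoGene 1.0 ST array. The series is about leukemia caused by BCR-ABL, a fused kinase. Whether these cells held that kinase, and which stretch of c-jun was removed, is not stated in the sample labels. Nor is it stated whether the 4 samples of a genotype are separate cultures or animals, so the p-values cover only how these samples vary, which can be technical in part. Sample titles follow 2 schemes: in each genotype replicates 1 and 2 begin with RO, and replicates 3 and 4 begin with D (knockout) or F (wild type).

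Values are log2 signals as deposited, and the median signal of an array lay between 6.93 and 7.42. Jun, the targeted gene, had signals of 6.46 to 7.02 in knockout samples and 8.77 to 10.55 in wild-type samples, a difference of -2.38 (SE 0.32; limma adjusted p = 0.106), so the signals went with the labels although the adjusted p did not pass. Within the schemes described above Jun passed, with -2.10 in RO samples (limma adjusted p = 0.0195) and -2.67 in D/F samples (limma adjusted p = 8.5e-05). Each of these fits had 2 knockout against 2 wild-type samples, so its p-value rests in large part on variance pooled over genes. The 2 wild-type Jun signals lay 1.78 apart in D/F samples and 0.014 apart in RO samples. Early B-lineage transcripts were bright in every sample: the surrogate light chain gene Igll1 lay at 13.82 to 14.21 and Cd79a, a signalling chain of the B-cell receptor, 13.02 to 13.30. Of the 13 measured B-lineage markers, 12 lay above the array median on all 8 arrays, the exception being Ms4a1. Of 43 measured markers of T, NK, myeloid, erythroid, megakaryocyte, stromal and endothelial cells, 20 lay below the array median on all 8 arrays, Ncr1 and Gata1 among them. Over all 19937 genes, 9710 lay above the array median on all 8 arrays and 7186 below it, against which these counts are to be read. Cd3e, at 7.10 to 7.75, lay a little above the median of every array, Mpo lay at 6.39 to 7.62, and Col1a1 at 7.72 to 8.48. Lyz2 (7.44 to 10.64) and Klrb1c (5.73 to 10.54) were the 2 of the 43 with an SD of at least 1 over the 8 arrays.

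The starts of the lymphoid genes and of the end-joining genes differed in their number of CG dinucleotides, which the choice of members did not use. RefSeq promoter windows of 300 bases on GRCm38.p6, from 250 bases before to 50 after a transcript start, were found for 9 of the 10 genes, with 2 windows for Lig4. Prkdc had no window. The windows of the 3 lymphoid enzymes and of 2 end-joining genes are shown, since they show the contrast that runs through the members: Xrcc6 as a CG-rich start and Nhej1 as the member of smallest spread over the samples. CG dinucleotides are in capitals.
Rag1, chr2:101649483-101649782, minus strand: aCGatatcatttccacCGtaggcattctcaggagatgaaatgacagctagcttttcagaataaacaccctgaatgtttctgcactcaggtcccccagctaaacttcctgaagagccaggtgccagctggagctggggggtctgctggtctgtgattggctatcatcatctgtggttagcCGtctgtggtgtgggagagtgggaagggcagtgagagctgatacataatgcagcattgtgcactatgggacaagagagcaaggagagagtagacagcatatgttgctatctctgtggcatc
Rag2, chr2:101624462-101624761, plus strand: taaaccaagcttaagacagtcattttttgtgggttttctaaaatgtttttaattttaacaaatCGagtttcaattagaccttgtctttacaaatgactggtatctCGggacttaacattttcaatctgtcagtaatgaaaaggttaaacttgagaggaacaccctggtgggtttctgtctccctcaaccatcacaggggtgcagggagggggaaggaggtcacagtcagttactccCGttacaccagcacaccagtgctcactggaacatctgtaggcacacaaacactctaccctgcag
Dntt, chr19:41029025-41029324, plus strand: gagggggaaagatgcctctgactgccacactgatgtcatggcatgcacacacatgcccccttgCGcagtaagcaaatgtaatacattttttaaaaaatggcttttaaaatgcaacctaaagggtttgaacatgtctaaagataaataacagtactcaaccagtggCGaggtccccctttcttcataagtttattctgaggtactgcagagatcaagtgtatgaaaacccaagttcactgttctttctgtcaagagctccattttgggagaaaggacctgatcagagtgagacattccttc
Xrcc6, chr15:82016119-82016418, plus strand: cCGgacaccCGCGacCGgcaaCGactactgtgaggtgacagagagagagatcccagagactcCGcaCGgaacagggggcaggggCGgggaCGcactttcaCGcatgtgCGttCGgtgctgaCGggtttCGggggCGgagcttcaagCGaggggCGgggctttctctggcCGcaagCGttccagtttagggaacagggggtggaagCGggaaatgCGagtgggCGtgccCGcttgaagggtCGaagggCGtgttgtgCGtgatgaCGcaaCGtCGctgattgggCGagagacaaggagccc
Nhej1, chr1:75125177-75125476, minus strand: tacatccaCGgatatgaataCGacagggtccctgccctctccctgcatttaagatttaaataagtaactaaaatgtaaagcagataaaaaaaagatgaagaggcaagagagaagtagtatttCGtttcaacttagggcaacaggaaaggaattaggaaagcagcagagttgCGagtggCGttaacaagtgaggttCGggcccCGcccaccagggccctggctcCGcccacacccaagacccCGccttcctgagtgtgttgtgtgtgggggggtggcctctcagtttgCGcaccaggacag

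The windows of Rag1 and Rag2 held 3 CG dinucleotides each and that of Dntt 2. Those of the end-joining genes held 9 in Xrcc5, 10 in Nhej1, 12 in Dclre1c, 29 and 30 in the Lig4 windows, 30 in Xrcc6 and 31 in Xrcc4. Over 32841 windows of 27018 genes the median was 7, so the lymphoid windows lay below it and all 7 end-joining windows above it. The windows of Xrcc5, Nhej1 and Dclre1c lay near it, with fewer CG dinucleotides in 54.2%, 56.5% and 60.4% of all windows. That share was 87.1% to 89.4% for Lig4, Xrcc6 and Xrcc4, and 14.1% to 23.3% for the lymphoid windows. Whether CG number goes with spread over the samples was not tested. The ratio of CG dinucleotides to the number expected from base content was 0.149 to 0.217 in the lymphoid windows and 0.505 to 1.04 in the end-joining windows, with a median of 0.384 over all windows. The G+C content overlapped: it was 42.3% in Dntt and 43.0% in Rag2, but that of Rag1 was above the 48.0% of Xrcc5, the lowest of the end-joining windows, which ran up to 67.3%. The GC box GGGCGG, which itself holds a CG, was found on either strand in 0 of 3 lymphoid and 5 of 7 end-joining windows, against 35.7% of all windows. The E-box CANNTG, the motif of E proteins, was found in 3 of 3 and 6 of 7, against 72.3% of all windows. The AP-1 motif TGANTCA, the site that c-JUN dimers bind, was in 0 of these 10 windows and in 7.81% of all windows, and TATAAA was in 0 of them and in 13.6% of all windows.

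**Figure D1:**
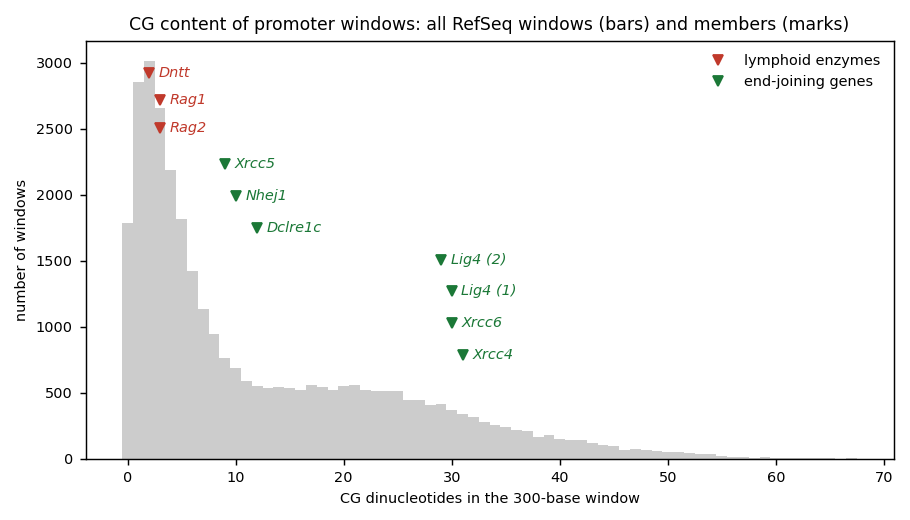
CG dinucleotides in 300-base RefSeq promoter windows (x axis, count per window). Grey bars count all 32841 windows (y axis), and the marks place the windows of the members, whose height on the page carries no value; the 3 lymphoid windows lie at 2 and 3, and the 7 end-joining windows at 9 to 31.

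Rag1 and Rag2 signals varied widely between samples and did so together, across both genotypes. Rag1 (probe set 10485372) had 9.88, 10.43, 8.06 and 8.003 in knockout replicates 1 to 4, against 7.22, 9.80, 9.72 and 6.17 in wild type replicates 1 to 4. The groups overlapped: knockout replicates 1 and 2 lay above every wild-type sample, while wild type replicates 2 and 3 lay above knockout replicates 3 and 4. Rag2 (probe set 10474105) had 9.09, 9.49, 6.63 and 6.91 in knockout replicates 1 to 4, against 8.63 and 8.31 in wild type replicates 2 and 3 and 6.22 and 5.69 in wild type replicates 1 and 4. From highest to lowest the 8 samples came in the same order for both genes, except that knockout replicates 3 and 4 changed places. The highest and the lowest sample differed 19.1-fold for Rag1 and 14.0-fold for Rag2. The lowest Rag2 signals lay below the median of their own arrays, in 4 of 8 samples, as did those of Rag1 in 2, so the size of these gaps is uncertain. In bulk RNA, fewer cells that make a transcript and less of it per cell cannot be told apart.

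Dntt was as variable but ranked the samples differently. Its signals (probe set 10463123) were 10.11, 6.83, 9.24 and 10.22 in knockout replicates 1 to 4, against 6.81, 7.55, 7.64 and 9.58 in wild type replicates 1 to 4. Knockout replicate 2, the highest sample for both Rag genes, was near the bottom for Dntt, and wild type replicate 4, the lowest for both Rag genes, was the third highest for Dntt. Wild type replicate 1 was low for all 3 genes and knockout replicate 1 was high for all 3. The highest and lowest samples differed 10.6-fold. With each gene centred on its own mean, the root mean square difference over the 8 arrays was 0.30 on the log2 scale between Rag1 and Rag2. It was 2.25 between Rag1 and Dntt and 2.15 between Rag2 and Dntt.

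**Figure D2:**
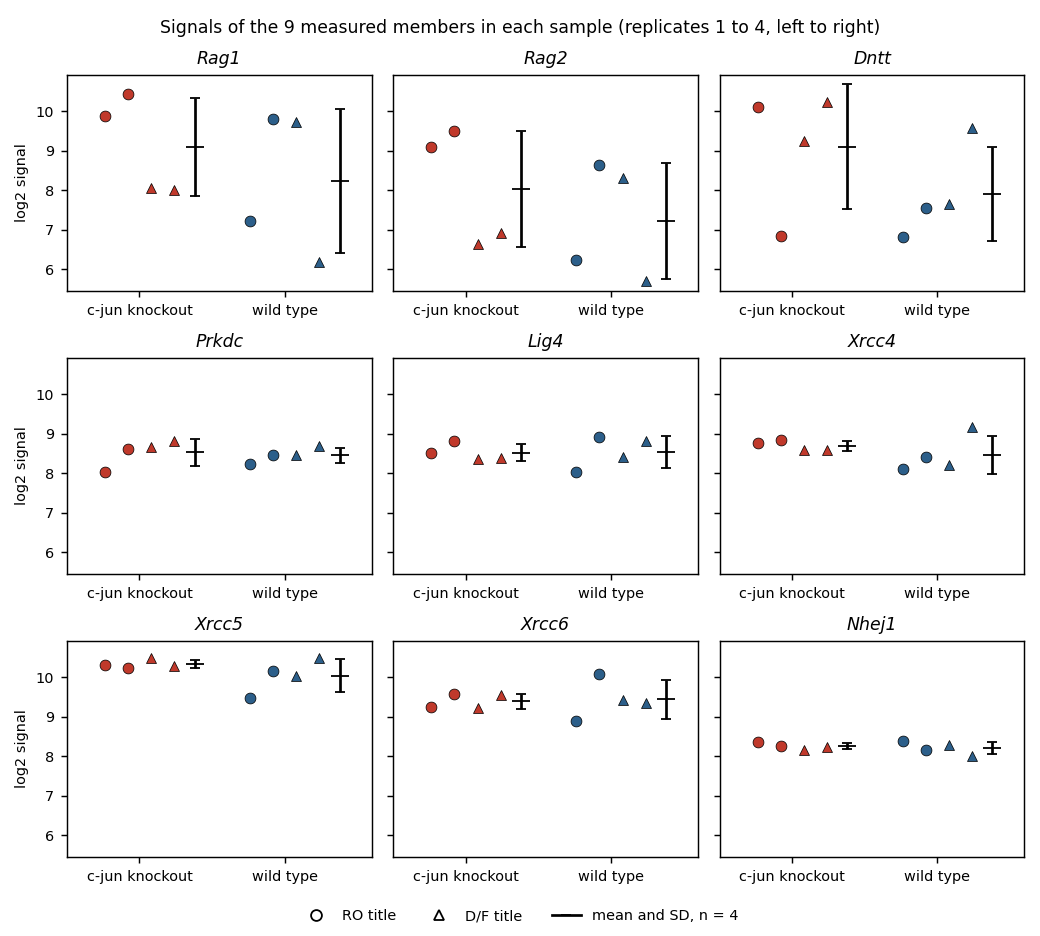
log2 signal (y axis) of the 9 measured members in each sample, with knockout samples to the left of wild-type samples and replicates 1 to 4 from left to right in each; circles have RO titles, triangles D/F titles, and bars give the mean and SD of 4 samples. Rag1, Rag2 and Dntt spread over 3.40 to 4.26 log2 units and the 6 end-joining genes over 0.37 to 1.20.

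The end-joining genes were nearly level by comparison. The Ku genes had their lowest signal in wild type replicate 1: Xrcc5 (probe set 10347232) had 10.32, 10.24, 10.48 and 10.28 in knockout replicates 1 to 4, against 9.48, 10.14, 10.02 and 10.49 in wild type replicates 1 to 4. Xrcc6 (probe set 10425632) had 9.25, 9.57, 9.21 and 9.54 in knockout samples, against 8.89, 10.09, 9.42 and 9.36 in wild-type samples. For both Ku genes the wild-type signals enclosed those of the knockout samples, so the groups overlapped throughout.

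The ligase and its partners followed. Lig4 (probe set 10576946) had 8.50, 8.82, 8.35 and 8.38 in knockout samples, against 8.04, 8.90, 8.40 and 8.81 in wild-type samples. Xrcc4 (probe set 10410947) had 8.76, 8.84, 8.59 and 8.59 in knockout samples, against 8.10, 8.40, 8.21 and 9.16 in wild-type samples. Xrcc4 thus lay within 0.25 log2 units among the knockout samples and over 1.06 among the wild-type samples, whose replicate 4 was the highest of the 8 arrays. Nhej1 (probe set 10355711) ran from 8.17 to 8.35 in knockout samples and from 8.01 to 8.38 in wild-type samples, and Prkdc (probe set 10433797), the catalytic kinase, had 8.02, 8.61, 8.65 and 8.82 in knockout samples, against 8.22, 8.47, 8.45 and 8.69 in wild-type samples. All 6 lay above the array median on every array, as did 9710 of 19937 genes.

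Wild type replicate 1 was the lowest of the 8 arrays for 4 of the 6 end-joining genes, Lig4, Xrcc4, Xrcc5 and Xrcc6. With each gene centred on its mean, the 6 averaged -0.39 on that array and -0.11 to 0.18 on the other 7. That array also had a median signal of 7.41, near the top of the range, and after quantile normalization the average was -0.46.

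The spread over the 8 arrays separated the lymphoid enzymes from the end-joining genes. The SD of the log2 signal was 1.52 for Rag1, 1.43 for Rag2 and 1.44 for Dntt, and it was 0.12 for Nhej1, 0.26 for Prkdc, 0.30 for Lig4, 0.33 for Xrcc5 and 0.35 for Xrcc4 and Xrcc6. Of 19937 genes, 44 had a larger SD than Rag1, 61 a larger one than Dntt and 63 a larger one than Rag2. The end-joining genes lay between percentile 4.29 (Nhej1) and percentile 81.5 (Xrcc6) of all genes. Among the 500 genes nearest in mean signal the percentiles were 98.2 to 99.6 for the lymphoid enzymes and 4.40 to 85.2 for the end-joining genes. These are descriptions with no test, and the members were chosen with earlier results of these data known.

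**Figure D3:**
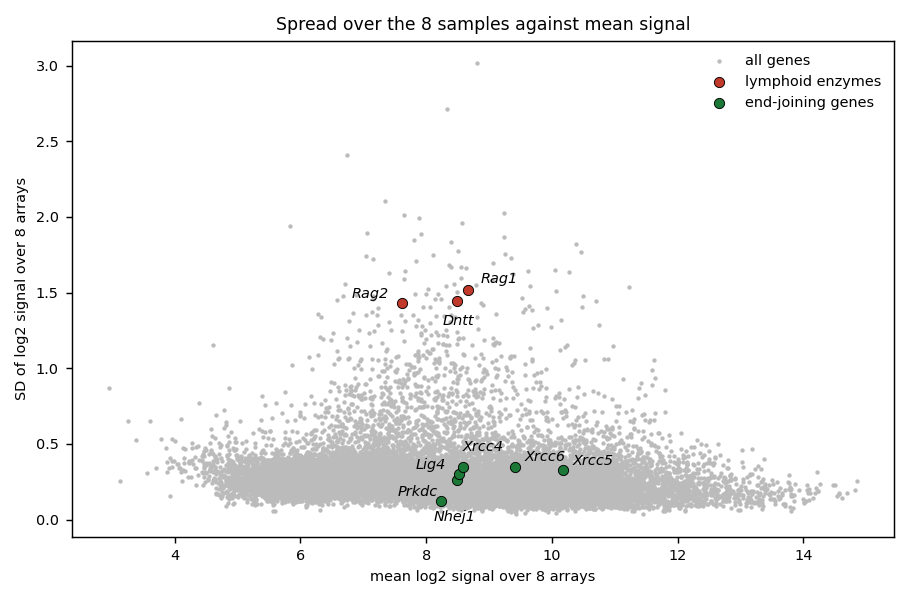
SD of the log2 signal over the 8 arrays (y axis) against the mean log2 signal (x axis) for 19937 genes (grey), the 3 lymphoid enzymes (red) and the 6 measured end-joining genes (green). The lymphoid enzymes have SDs of 1.43 to 1.52 and the end-joining genes of 0.12 to 0.35.

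Other DNA repair genes also spread far less than the lymphoid enzymes. Over 4 lists of accessory end-joining, break-signalling, alternative end-joining and homologous recombination genes, 44 of 50 were measured, and their SDs over the 8 arrays ran from 0.083 to 0.38, with a median of 0.18, beside a median of 0.31 for the 6 end-joining genes and 0.26 over all genes. The checkpoint kinase gene Chek2 had the largest of these, at 7.83 in wild type replicate 1 and at most 9.06 elsewhere. Factors that act with RAG or on its turnover, such as the DNA-bending proteins HMGB1 and HMGB2, had SDs of at most 0.28 in 9 of 9 measured genes. Of 22 measured regulators of Rag transcription, Satb1 had an SD of 1.25 and the other 21 had less than 1.

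Samples of the same genotype and the same title scheme differed from each other for the lymphoid enzymes. For Rag1 the 2 samples of such a pair were 0.55 (RO) and 0.056 (D/F) log2 units apart among knockout samples, against 2.58 (RO) and 3.55 (D/F) among wild-type samples. For Rag2 the gaps were 0.41 and 0.28 among knockout samples, against 2.40 and 2.62 among wild-type samples. For Dntt they were 3.28 and 0.97 among knockout samples, against 0.73 and 1.94 among wild-type samples. The Rag gaps were thus larger in the wild-type pairs, and the RO gap of Dntt was larger in the knockout pair; with 1 pair of each kind, a difference in spread was not tested. The corresponding gaps of the 6 end-joining genes were at most 0.59 among knockout samples and at most 1.20 among wild-type samples.

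The design asks whether loss of c-JUN changed these transcripts. With genotype and title scheme as terms in limma, a linear model with pooled variance, 0 of the 9 measured members passed the Benjamini-Hochberg adjustment over all genes at 0.05, and over all genes 1 was called (0.00502%). All 3 lymphoid enzymes averaged higher in knockout samples. The difference was smaller than the SD of either genotype for Rag1 and Rag2, and for Dntt it was smaller than the knockout SD and close to the wild-type SD. Rag1 averaged 9.09 ± 1.25 in knockout samples and 8.23 ± 1.82 in wild-type samples (SD, n = 4 each), a log2 difference of 0.86 (SE 0.71; limma adjusted p = 0.878). Rag2 averaged 8.03 ± 1.47 in knockout samples and 7.21 ± 1.47 in wild-type samples (SD, n = 4 each), a difference of 0.82 (SE 0.63; limma adjusted p = 0.878). Dntt averaged 9.098 ± 1.58 in knockout samples and 7.89 ± 1.18 in wild-type samples (SD, n = 4 each), a difference of 1.20 (SE 0.61; limma adjusted p = 0.878). Exact 2-sided permutation tests over the 70 assignments of 4 and 4 arrays gave p = 0.400, 0.486 and 0.343 for Rag1, Rag2 and Dntt, where 0.0286 is the smallest value possible. The 95% intervals of the 3 differences, -0.68 to 2.41, -0.57 to 2.20 and -0.13 to 2.54, include no difference as well as rises of more than 4-fold. With arrays weighted by how well they follow the model, the Rag1 and Rag2 differences turned to -0.23 and -0.068, with wild type replicates 4 and 1 given the lowest weights.

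The genotype differences of the end-joining genes were small, with narrower intervals. Xrcc5 had 0.30 (SE 0.18), Xrcc4 0.23 (SE 0.22), Prkdc 0.068 (SE 0.18), Nhej1 0.049 (SE 0.15), Lig4 -0.023 (SE 0.22) and Xrcc6 -0.045 (SE 0.23), with limma adjusted p from 0.878 to 0.979. Their exact permutation p-values ran from 0.229 to 0.886. The median difference was 0.058 for the 6 end-joining genes and 0.86 for the 3 lymphoid enzymes, beside -0.11 over all genes, a shift that the scaling of the arrays sets in part. In 0 of 9 members did all knockout samples lie beyond all wild-type samples, which happened for 1.29% of all genes, 0.266% with knockout above and 1.03% with knockout below. Likewise 0 members had an unadjusted limma p under 0.05, against 2.25% of all genes.

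Within the title schemes the Rag genotype differences were larger in the RO than in the D/F samples. The difference was 1.64 for Rag1 and 1.87 for Rag2 in RO samples, where 2 knockout stand against 2 wild-type samples, and 0.085 and -0.23 in D/F samples. Over both schemes, leaving out wild type replicate 1 gave a difference of 0.19 for Rag1 and 0.13 for Rag2, and leaving out wild type replicate 4 gave 0.31 and 0.50. Leaving out wild type replicate 3 gave 1.73 and 1.55, so single wild-type samples moved the difference both ways. The interaction of genotype and title scheme did not pass for Rag1 or Rag2 (limma adjusted p = 0.716 for both), and 0.0301% of all genes were called for it. At an unadjusted interaction p under 0.05 there were 0 of 9 members, against 5.38% of all genes. Dntt had 1.29 in RO and 1.12 in D/F samples, with an interaction of -0.17 (SE 1.26). Its difference was 0.53 without knockout replicate 1 and 1.84 without knockout replicate 2. For the end-joining genes the difference had opposite signs in the 2 schemes for Prkdc, Lig4 and Xrcc4, and 0 of 6 passed the interaction.

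**Figure D4:**
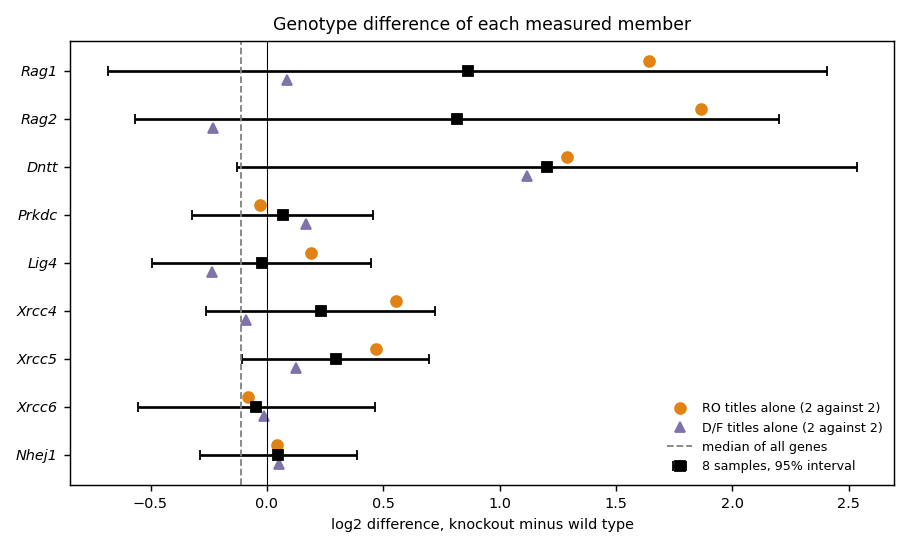
log2 difference, knockout minus wild type (x axis), of the 9 measured members: squares with 95% intervals come from all 8 samples, circles from the 4 RO samples and triangles from the 4 D/F samples; the dashed line is the median of all genes at -0.11. The intervals of Rag1, Rag2 and Dntt are wider than those of the 6 end-joining genes, and the 9 intervals include 0.

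Between title schemes, with genotype as a term, D/F samples were lower than RO samples by 1.35 for Rag1 (SE 0.71) and 1.48 for Rag2 (SE 0.63) and higher by 1.35 for Dntt (SE 0.61). None of the 9 members passed the limma adjustment; at an unadjusted p under 0.05 there were 2, Rag2 and Dntt. Over all genes 0.0201% were called after adjustment and 3.12% had such an unadjusted p. After both terms were fitted, the residual SD was 1.48 for Rag1, 1.31 for Rag2 and 1.27 for Dntt, against 0.12 to 0.41 for the end-joining genes. These 2 terms, fitted without their interaction, thus left much of the spread of the lymphoid enzymes.

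The genes most like Rag1 and Rag2 over the 8 arrays were then listed, by the root mean square difference of gene-centred log2 signals. Among 9627 genes at or above the median brightness, the nearest to Rag1 was Rag2 (0.30), followed by Satb1 (0.60), which encodes a chromatin organizer of lymphocytes, Gja1 (0.68), which encodes connexin 43, the sialyltransferase gene St3gal6 (0.71) and B3gnt2 (0.77), a glycosyltransferase gene. The nearest to Rag2 was Rag1, followed by Satb1 (0.54), Gja1 (0.60), Il7r (0.62), which encodes the interleukin-7 receptor alpha chain, and St3gal6 (0.64). Satb1 had 8.97, 8.41, 6.54 and 6.41 in knockout replicates 1 to 4, against 6.81, 8.71, 8.92 and 6.10 in wild type replicates 1 to 4. Il7r had 12.40, 12.44, 9.75 and 8.96 in knockout samples, against 8.92, 11.64, 11.39 and 10.13 in wild-type samples. Il7r lay farther from Rag1, at 0.83, rank 13 of 17515 genes with no brightness limit. For both Satb1 and Il7r, as for the Rag genes, the highest 4 signals were those of knockout replicates 1 and 2 with wild type replicates 2 and 3. Both were listed for their likeness to a Rag gene, so this sharing follows from how they were picked. Over all 8 samples neither passed by genotype, with -0.052 (SE 0.61) for Satb1 and 0.37 (SE 0.70) for Il7r, and these averages join differences of opposite sign. Satb1 had 0.93 in RO and -1.04 in D/F samples, and Il7r had 2.14 in RO samples (limma adjusted p = 0.397) and -1.40 in D/F samples (limma adjusted p = 0.00727). Each of these fits had 2 against 2 samples, so its p-value rests mostly on variance pooled over genes and little on the gaps between these samples. A fall of Il7r in D/F knockout samples is therefore not established here. The 2 Il7r signals of a D/F pair lay 0.79 (knockout) and 1.26 (wild type) apart, and those of an RO pair 0.041 and 2.71. The interaction of Il7r with title scheme was -3.54 (SE 0.97; limma adjusted p = 0.716).

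Dntt had no neighbour as close as Rag1 is to Rag2. Its nearest genes were Pla2g4a (0.69), a cytosolic phospholipase gene, Sema5a (0.85), a semaphorin gene, the glutaredoxin gene Glrx2 (0.88), Ano10 (0.95) and Antxr2 (0.96). Pla2g4a had its lowest signal, 5.89, in knockout replicate 2, where Dntt was also low, but it was at 7.97 in wild type replicate 1, the lowest sample for Dntt.

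Genes beside Rag1 and Rag2 on chromosome 2 were also read. The adjacent protein-coding gene on the Rag2 side, Iftap, which encodes an intraflagellar transport-associated protein, was dim, below the array median in 5 of 8 samples, and was therefore outside the likeness list above. Its signals were 7.69, 7.94, 5.69 and 6.15 in knockout replicates 1 to 4, against 5.79, 7.19, 6.79 and 5.07 in wild type replicates 1 to 4. Iftap thus ranked the samples nearly as the Rag genes did. With no brightness limit it was second only to the other Rag gene among 17515 genes, at 0.58 from Rag1 and 0.42 from Rag2. In the GRCm38.p6 gene table its span overlaps that of Rag2. The Iftap promoter windows lie on the minus strand, as does that of Rag1, and that of Rag2 on the plus strand. Iftap had 2 probe sets, and only the one of highest mean was read. Where its probes lie was not known, and whether Rag transcripts add to its signal was not tested. Traf6, the adjacent protein-coding gene on the Rag1 side, which encodes a ubiquitin ligase of innate signalling, stayed between 9.92 and 10.55 on the 8 arrays and lay 1.29 from Rag1 and 1.20 from Rag2.

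**Figure D5:**
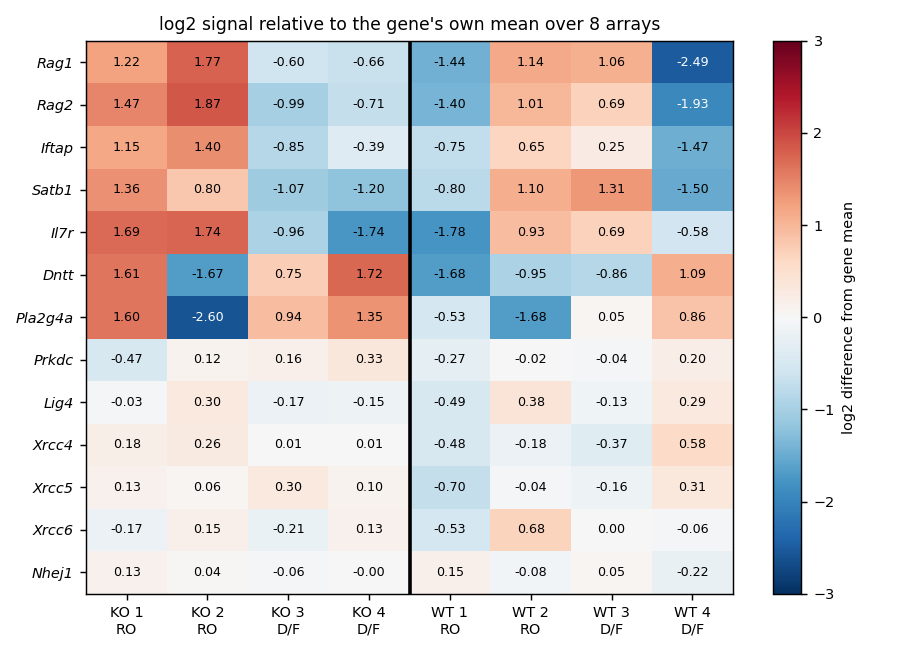
log2 signal relative to each gene's own mean over the 8 arrays (colour and printed value) in knockout (KO) samples, left of the line, and wild-type (WT) samples, right of it. Iftap, Satb1 and Il7r are positive in the same 4 samples as Rag1 and Rag2, Dntt and Pla2g4a each in another set, and the 6 end-joining genes stay between -0.70 and 0.68. Satb1, Il7r and Pla2g4a were picked for their likeness to a lymphoid enzyme in these same samples.

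Genes that act around the members were counted by genotype from lists of their roles. Over all genes, 14355 of 19937 averaged lower in knockout samples and 5582 higher, against which the counts below are to be read. Of 22 measured regulators of Rag transcription, 0 passed, 12 averaged higher and 10 lower in knockout samples, with a median of 0.043. Gfi1b, a repressor described at the Rag locus in mouse B-lineage cells, had 9.70 ± 0.20 in knockout samples and 10.07 ± 0.17 in wild-type samples (SD, n = 4 each), a difference of -0.37 (SE 0.15; limma adjusted p = 0.878). The transcription factor genes Tcf12 (0.23, SE 0.17) and Bach2 (0.18, SE 0.14) and the E-protein inhibitor Id2 (0.23, SE 0.23) did not pass either. Among RAG cofactors and turnover genes, 5 of 9 averaged higher and 0 passed; Hmgb1 had -0.084 (SE 0.20), Ddb1 -0.065 (SE 0.12), Kpna1 0.073 (SE 0.19) and Ccna2 0.067 (SE 0.14).

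Accessory end-joining genes averaged lower in 7 of 9 cases, a share near that of all genes, with a median of -0.077 and 0 passing. The template-using and gap-filling polymerase genes Polm and Poll had -0.35 (SE 0.21) and -0.28 (SE 0.18), and the end-cleaning enzymes Tdp1 and Tdp2 had -0.15 (SE 0.14) and 0.12 (SE 0.14). Break-signalling genes averaged higher in 10 of 14 cases, with a median of 0.065 and 0 passing. Of these Mad2l2, a shieldin subunit, had -0.26 (SE 0.18), the ubiquitin ligase gene Rnf168 0.17 (SE 0.14), Chek2 0.22 (SE 0.23) and Shld2 0.16 (SE 0.20). Alternative end-joining genes (4 of 9 higher, median -0.010) and homologous recombination genes (6 of 12 higher, median -0.0012) also had 0 passing. Ercc1 had -0.22 (SE 0.15), Parp1 -0.15 (SE 0.14), Polq 0.088 (SE 0.16) and Lig3 0.065 (SE 0.14), and the recombination genes Blm, Brca2, Dmc1 and Rad51d had 0.22, 0.17, -0.16 and -0.11. The median over all genes, -0.11, stands beside each of these counts.

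Because Rag1, Rag2 and Dntt are also made by immature T cells, T-cell markers were read beside them. Of 10 measured T-cell markers, 10 averaged lower in knockout samples, as most of all genes did, and 0 passed. Below the array median on all 8 arrays lay 3 of the 10, and 7186 of 19937 over all genes. Their summed linear signal was 1084 to 1457 in knockout samples and 1170 to 1841 in wild-type samples. Of 12 measured myeloid markers, 10 averaged lower and 2 higher in knockout samples, with a median of -0.16, and 0 passed. Their summed linear signal, on which bright markers weigh most, was 1368 to 2588 in knockout samples and 1250 to 2340 in wild-type samples. The largest difference among them was that of Lyz2, 0.67 (SE 0.58), against the direction of most. Lyz2 had 10.63, 10.64, 9.24 and 7.44 in knockout replicates 1 to 4, against 8.33, 8.66, 9.93 and 8.35 in wild type replicates 1 to 4. The part of other cell types in the Rag and Dntt signals was not tested.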

How the data were processed

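Transcript levels were measured on 1 Affymetrix MoGene 1.0 ST array for each of 8 samples. The authors deposited log2 values for 34760 probe sets, 1 column per sample. MAS5 is the tool named, per the submitters' processing notes, with no version or settings. It was designed for arrays with mismatch probes, and this array has none, so the steps behind the values are not known. That they are log2, scaled to a common mean, was inferred from the values. Back on the linear scale, the mean with 2% trimmed at each end averaged 500.0 over the 8 arrays. Scaling of that kind would fix each array's trimmed mean but not its median. Probe sets were named through the supplied platform annotation. Of 21640 with 1 symbol, the one of highest mean was kept per gene, giving 19937 genes; each measured member had 1.

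Groups came from the genotype label and replicates were numbered in deposit order, so numbers pair nothing. A linear model of genotype and title scheme was fitted to the log2 values in limma 3.58.1 under R 4.3.3 (lmFit, then eBayes with trend), with 5 residual degrees of freedom and Benjamini-Hochberg adjustment over all genes at 0.05. The labels do not call the title schemes batches. The interaction, fits within schemes and 2-sided exact permutation tests were run beside it. The fit was tested on simulated data. Members, lists and alternatives were chosen with earlier results of these data known. Named genes were the members, up to 4 genes of smallest p per list, 5 nearest genes for each lymphoid enzyme and defining markers; Hmgb2, Ms4a1 and Klrb1c were added after their values were seen. Precision is limited by the number of arrays. Alternatives were other scalings, models, filters, schemes alone and samples left out.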

Additional observations from a re-analysis of the deposited data

Results flagged for a closer look

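In groups of 4 samples, a sample was marked where its gap to the nearest of the others exceeded Dixon's 95% critical share of the group's range. Of 110 groups (55 named genes in each genotype) chance would mark about 5.5, and 9 were marked. None of the 18 groups of the 9 measured members was among them. Jun was marked in both genotypes, at 6.46 in knockout replicate 2 (the other knockout samples 6.97 to 7.02) and at 10.55 in wild type replicate 3 (the other wild-type samples 8.77 to 8.84). Pla2g4a, the gene most like Dntt, had 5.89 in knockout replicate 2 against 9.43 to 10.10 in the other knockout samples. Wild type replicate 1 was low for Shld2 (7.74, others 8.52 to 8.60) and Hmgb1 (9.62, others 10.23 to 10.36). Knockout replicate 1 was low for Polq (8.13, others 8.53 at each) and high for Parp1 (10.98, others 10.87 to 10.89). Dmc1 had 5.96 in knockout replicate 2 (others 6.27 to 6.29) and Ddb1 12.16 in wild type replicate 4 (others 12.40 to 12.43).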

How the results depend on the processing

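No paired analysis was possible because the labels carry no replicate numbers. No member passed in any of 18 alternatives (lowest limma adjusted p 0.175). Dntt (0.53 to 1.84) and Xrcc5 (0.0099 to 0.47) kept their sign in all 18. With array weights Rag1 turned to -0.23, Rag2 to -0.068 and the median of the 3 lymphoid enzymes to -0.068. In D/F samples alone Rag2 was -0.23 and Xrcc4 -0.091; in RO samples alone Prkdc was -0.031 and Lig4 0.19. Without wild type replicates 1 and 3, an exclusion chosen after seeing the data, Prkdc was -0.052 and Xrcc4 -0.081. Lig4 was 0.069 after quantile normalization and 0.13 with arrays centred on their medians, where Xrcc6 was 0.11. Leaving out 1 sample at a time gave -0.24 to 0.11 for Lig4, -0.0057 to 0.10 for Nhej1, -0.029 to 0.21 for Prkdc, -0.28 to 0.20 for Xrcc6, 0.19 to 1.73 for Rag1 and 0.13 to 1.55 for Rag2. The median of all genes was -0.11 as deposited, 0.04 with arrays centred and -0.02 after quantile normalization. The genotype count over all genes, 1, became 2 with array weights, 0 among the brighter 9969 genes, 32 in RO samples alone, 79 in D/F samples alone, 4 without wild type replicates 1 and 3, and 0 to 2 with 1 sample left out. The title-scheme count, 4, became 20 with array weights and 0 among the brighter genes. The interaction count, 6, became 2 after quantile normalization, 12 with array weights and 0 among the brighter genes. The cause was not tested in any case. With arrays centred on their medians the SD over the 8 arrays was 0.45 for Lig4, 0.18 for Nhej1 and 0.52 for Xrcc4, each over 1.5 times the value as deposited, and at most 1.56 for the lymphoid enzymes. The number of arrays, and signals below the array median for the lowest Rag1, Rag2 and Dntt samples, limit what could be seen.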
